A study of Mus musculus with 48 samples.

Results

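Sox genes were examined in transplanted mouse mammary tumors through 10 members, Sox2, Sox4, Sox7, Sox9, Sox10, Sox11, Sox12, Sox15, Sox17 and Sox18. A member was taken as the array transcript cluster annotated with that symbol, and each member had 1 such cluster. The 10 members were chosen because their signal over these tumor models was already known, so their levels by model are given as a description, and nothing is read from tests made on those levels. They were 10 of 19 Sox genes and 10 of 19938 genes on the array.

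RNA from 48 tumors, 4 from each of 12 models, had been hybridised to Affymetrix Mouse Gene 1.0 ST arrays, which read each gene with probes along its transcript. Each model is 1 cell line, implanted into the #4 mammary fat pad of immunocompetent mice of the strain the line came from. The methods describe young adult female hosts, and the labels give no age and no treatment. Tumors were taken at 0.5 to 1.0 cm and freed of adjoining normal and necrotic tissue before freezing. Of the spontaneous lines, TS/A-E1, F311, EMT-6, D2A1 and 4T1 arose in BALB/c mice and E0771 in C57BL/6 mice. Of the lines from genetically engineered mice, Met-1, MVT-1, M6, HRM-1 and 6DT1 came from FVB/N and R3T from 129Sv. MVT-1 was derived from a tumor carrying the Myc and VEGF transgenes under the mammary-active MMTV promoter. No normal mammary gland was among the samples compared here, and the labels name no batch.

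Sox proteins are transcription factors that share an HMG box, a DNA-binding domain that fits into the minor groove and bends the helix. They usually work beside a partner factor, and related members that bind similar sites can replace one another. Sox2, of the SoxB1 group, maintains pluripotent and neural stem cells. Sox4, Sox11 and Sox12 form the SoxC group, which acts in developing neurons and mesenchyme. Sox9 and Sox10, of the SoxE group, act in cartilage and neural crest respectively, and both are also found in mammary epithelium. Sox7, Sox17 and Sox18 form the SoxF group of vascular endothelium. Sox15 is the single mouse SoxG gene, known from muscle precursors and trophoblast.

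Promoters are shown for 4 members whose signal separated some models from the others, to place those genes in the genome. RefSeq promoter sequence on build GRCm38.p6 was held for 5 of the 10 members, these 4 and Sox12. Each line gives the 250 bases upstream of the annotated start, read 5′ to 3′ on the gene's strand. Capitals mark matches, on either strand, to the TATA box (TATAAA), the CCAAT box (CCAAT), the GC box (GGGCGG), an E-box (CACGTG), the core shared by Sox and TCF proteins (ACAAAG) or a Sox core (AACAAT).
Sox2, chr3:34649745-34649994, plus strand: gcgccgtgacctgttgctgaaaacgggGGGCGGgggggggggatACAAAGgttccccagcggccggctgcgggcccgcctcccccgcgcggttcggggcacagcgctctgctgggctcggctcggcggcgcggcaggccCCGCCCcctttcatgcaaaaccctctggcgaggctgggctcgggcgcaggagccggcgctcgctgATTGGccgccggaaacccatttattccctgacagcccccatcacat
Sox4, chr13:28953700-28953949, minus strand: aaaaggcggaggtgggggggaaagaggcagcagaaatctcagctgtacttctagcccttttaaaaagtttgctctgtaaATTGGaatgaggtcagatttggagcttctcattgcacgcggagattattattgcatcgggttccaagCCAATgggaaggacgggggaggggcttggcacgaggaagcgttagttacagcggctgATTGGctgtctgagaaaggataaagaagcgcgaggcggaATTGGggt
Sox11, chr12:27342719-27342968, minus strand: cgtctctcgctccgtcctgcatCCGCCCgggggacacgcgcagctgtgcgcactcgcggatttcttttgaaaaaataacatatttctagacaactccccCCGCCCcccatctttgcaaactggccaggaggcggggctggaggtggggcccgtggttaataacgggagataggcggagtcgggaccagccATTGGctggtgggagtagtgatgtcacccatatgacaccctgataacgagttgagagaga
Sox15, chr11:69654787-69655036, plus strand: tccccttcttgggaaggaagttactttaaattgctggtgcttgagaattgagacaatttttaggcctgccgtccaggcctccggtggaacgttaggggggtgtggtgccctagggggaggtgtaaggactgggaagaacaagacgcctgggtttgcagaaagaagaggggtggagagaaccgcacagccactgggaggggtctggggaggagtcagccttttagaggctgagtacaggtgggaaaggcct

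The Sox2 window was 72% G and C, that of Sox11 58%, that of Sox15 55.6% and that of Sox4 50.8%, beside a median of 52.4% over all 32851 windows of 27025 genes. The Sox4 window held 4 CCAAT matches, and CCAAT occurred in 33.8% of all windows. Sox2 held GGGCGG on both strands, 1 CCAAT match and 1 ACAAAG. Sox11 held 2 GGGCGG matches and 1 CCAAT match, and Sox15 held none of the motifs searched. GGGCGG occurred in 32.7% of windows, ACAAAG in 16.5%, TATAAA in 12.4%, AACAAT in 9.42% and CACGTG in 6.02%. These matches describe the letters only, since the arrays measured no binding.

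Before the members are described, 9 tumors have to be set apart. For each list of marker genes, a score was formed for every tumor as the mean of its genes' log2 signals after subtracting each gene's mean over the 48 tumors. The adipocyte or the B cell score lay more than 2.5 log2 units above its median in 4T1 replicate 3, 6DT1 replicates 2 and 3, E0771 replicate 1, EMT-6 replicate 3, F311 replicates 1 and 2, Met-1 replicate 2 and R3T replicate 2. These are called host-rich below, and values without them are given beside those that rest on them unless stated otherwise. Some were also the highest of their model in mammary epithelial genes. E0771 replicate 1 was so for all 13 luminal and all 10 basal genes, and EMT-6 replicate 3 for 12 and 8. Others were not, as 4T1 replicate 3 for 4 and 1 and F311 replicate 2 for 1 and 0. The limit of 2.5 was set over all 48 tumors, so a tumor rich in fat genes for its own model could lie under it. In these bulk samples, fewer cells of a type and less RNA per cell cannot be told apart.

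**Figure D1:**
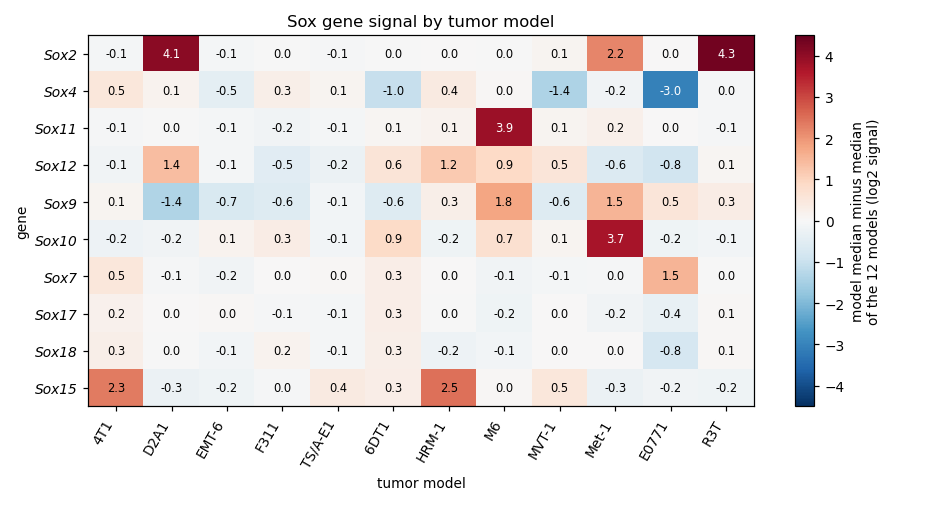
Median log2 signal of each of 10 Sox genes (rows) in each of 12 tumor models (columns), minus the median of that gene's 12 model medians. Sox2 stands out in R3T, D2A1 and Met-1, Sox11 in M6, Sox10 in Met-1 and Sox15 in HRM-1 and 4T1, while the rows of Sox17 and Sox18 are nearly flat.

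The map of model medians shows the members falling into 3 kinds of pattern. Sox2, Sox11, Sox10 and Sox15 had their widest step below 1 to 3 models, and that step was 1.81 log2 units or more. Sox4, Sox9, Sox12 and Sox7 had smaller widest steps, of 0.44 to 1.65, with E0771 at an extreme for Sox4, Sox12 and Sox7. Sox17 and Sox18 differed little between models and more among tumors of a model. The median range of the model medians was 2.95 log2 units over the 10 members and 0.69 over all 19938 genes, and 9 of the 10 members lay above that value. In 5 of the 10 members, the tumors above and below the widest step between model medians did not overlap, beside 12.2% of all genes. With the host-rich tumors left out this held for 8 members, all but Sox17 and Sox18, beside 34% of all genes. An F-test over the 12 models in limma passed for 8 of the 10 members, Sox17 and Sox18 being the exceptions, beside 70.4% of all genes. Both also passed without the host-rich tumors, and Sox18 did without replicate 1. The members were chosen on this contrast, so nothing is read from these counts. As a rough floor, the 1015 odorant receptor genes, which are generally silent outside the nose, had a median signal of 4.75 and a 95th percentile of 6.03.

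Sox2, the pluripotency and neural stem cell factor, was high in 3 models. In R3T the tumors read 9.49, 9.45, 9.40 and 9.41 log2 units, and in D2A1 they read 9.35, 9.05, 9.11 and 9.23. Met-1 was intermediate and uneven, at 7.70, 5.70, 7.59 and 6.99. The remaining 9 models had medians from 5.01 to 5.22, and their highest single tumor read 5.45, in MVT-1. The 3 models with signal therefore did not overlap the other 9, although Met-1 replicate 2, a host-rich tumor, lay only just above them at 5.70 and under the odorant receptor percentile. Without that tumor the Met-1 median was 7.59 in place of 7.29. The R3T median was at least 10.6-fold higher than those of the 9 models under the odorant receptor percentile, counted against that percentile, and the order among the 9 has no reading. R3T and D2A1 are of different strains and origins, 129Sv engineered and BALB/c spontaneous. Their medians, 9.43 and 9.17, were separated by little, with the lowest R3T tumor at 9.40 and the highest D2A1 tumor at 9.35. Among the 9 measured pluripotency factors that act with Sox2, 3 passed the F-test, beside 70.4% of all genes. Klf4 averaged 9.93 ± 0.23 (SD, n = 4) in R3T, its highest model, and 8.18 ± 0.17 in 4T1, its lowest. Nanog, a core pluripotency factor, was highest in D2A1 at 7.13 ± 0.23 and lowest in HRM-1 at 6.45 ± 0.12. Utf1, a chromatin protein of embryonic stem cells, was highest in HRM-1 at 6.88 ± 0.54, a model whose Sox2 median was 5.11.

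**Figure D2:**
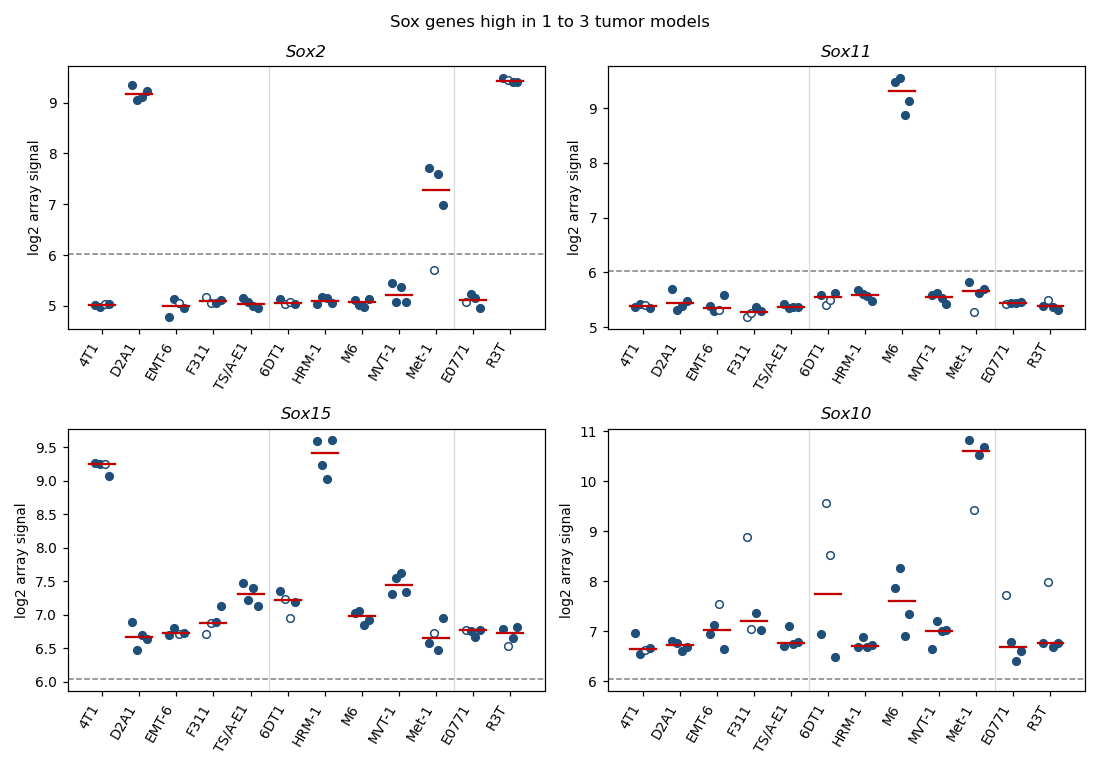
Log2 array signal of Sox2, Sox11, Sox10 and Sox15 in each tumor, by model, where open circles are host-rich tumors, red bars are model medians and the dashed line is the 95th percentile of odorant receptor genes (6.03). The high tumors of Sox11 and Sox15 stand clear of the other models, and so do those of Sox2 except Met-1 replicate 2, under the dashed line. In contrast, 6DT1 replicate 2 reaches into the Met-1 range of Sox10.

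Of the SoxC genes, Sox11 was the most restricted by model. The 4 M6 tumors read 9.47, 9.55, 8.87 and 9.14 log2 units. All other tumors read 5.82 or less, and the medians of their 11 models lay between 5.28 and 5.66. No tumor outside M6 exceeded the odorant receptor percentile, and the M6 median was at least 9.67-fold above it. The SD among the M6 tumors was 0.31 log2 units.

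Sox4, a SoxC factor widely present in epithelia and in carcinomas, was instead lowest in a single model. The E0771 tumors read 7.33, 5.82, 6.36 and 6.44, and the highest of these is the host-rich replicate 1. Every tumor of the other 11 models was above 7.33, the lowest being an MVT-1 tumor at 7.65. At the upper end, 4T1 read 9.76, 10.10, 9.86 and 10.04, 11.7-fold above E0771 by the medians. MVT-1 and 6DT1, with medians of 8.06 and 8.39, came next above E0771 and overlapped each other.

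Sox12, the remaining SoxC gene, spread over the models in small steps. D2A1 was highest at 8.83, 9.08, 9.30 and 9.28, followed by HRM-1 with a median of 8.96 and M6 with 8.67. E0771 was lowest at 6.91, 6.72, 7.17 and 6.96, 4.74-fold under D2A1 by the medians. The widest step, between MVT-1 and R3T, was 0.44 log2 units, and tumors on its sides overlapped through the host-rich 6DT1 replicate 3 at 7.87. Without the host-rich tumors, the 5 upper models read 8.28 or more and the 7 lower ones 7.92 or less. Thus none of the 3 SoxC genes shared its highest model with another, while E0771 was the lowest model for both Sox4 and Sox12. Of 8 neuronal and SoxC-associated genes, 7 passed the F-test, beside 70.4% of all genes. Stmn2, a neuronal microtubule regulator, averaged 10.84 ± 0.10 in D2A1 and 5.46 ± 0.13 in 4T1 (SD, n = 4). Tead2, a transcription factor of the Hippo pathway, was also highest in D2A1, at 10.64 ± 0.16, and lowest in MVT-1, at 8.10 ± 0.51. Map2, a dendritic microtubule protein, was highest in M6 at 9.99 ± 0.29 and lowest in E0771 at 6.70 ± 0.36.

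**Figure D3:**
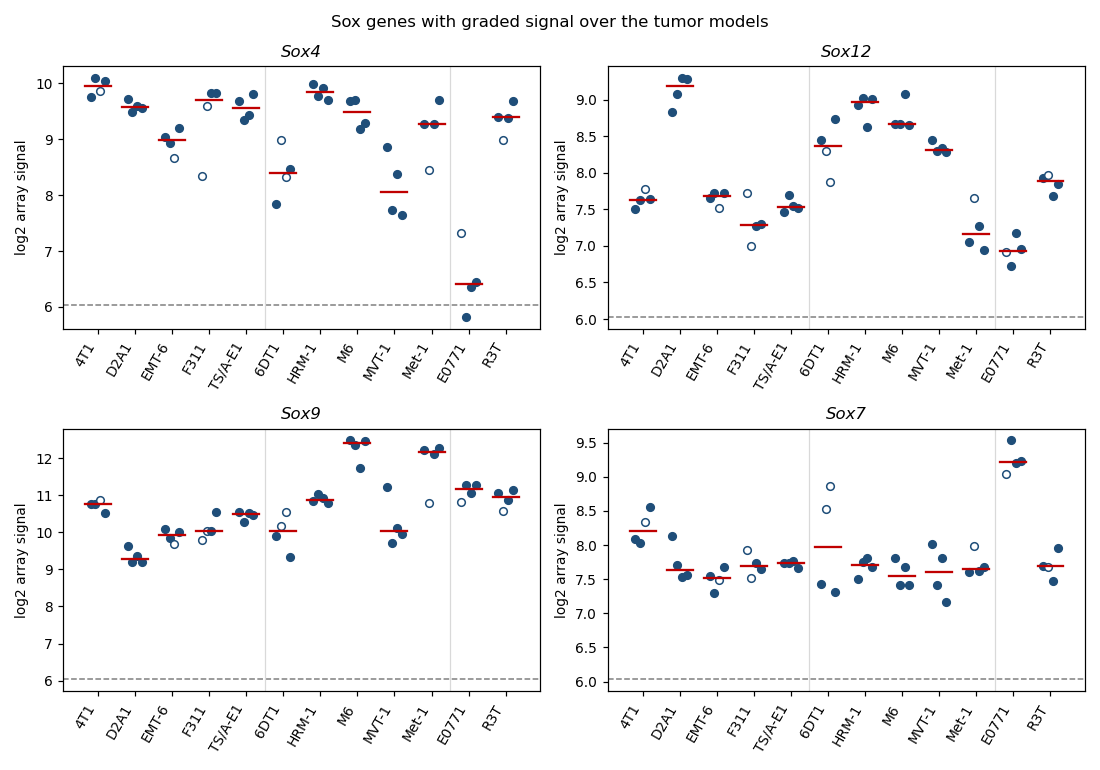
Log2 array signal of Sox4, Sox12, Sox9 and Sox7 in each tumor, by model, where open circles are host-rich tumors, red bars are model medians and the dashed line is the 95th percentile of odorant receptor genes (6.03). E0771 is the lowest model for Sox4 and Sox12 and the highest for Sox7, and M6 and Met-1 are the highest for Sox9.

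Sox9, the SoxE factor of cartilage that also marks luminal progenitors of the mammary gland, was highest in M6 and Met-1. M6 tumors read 12.48, 12.36, 11.74 and 12.45, and Met-1 tumors read 12.23, 10.78, 12.11 and 12.26. The low Met-1 value belonged to replicate 2, the host-rich tumor that was also low for Sox2. D2A1 was lowest, at 9.62, 9.20, 9.35 and 9.20, so the range of the medians was 3.13 log2 units or 8.78-fold. Because of the 10.78 in Met-1, the tumors of M6 and Met-1 overlapped those below them, where E0771 reached 11.28. When the host-rich tumors were left out they did not, with the lowest of M6 and Met-1 at 11.74. Of 8 cartilage genes that Sox9 binds, 6 passed the F-test, beside 70.4% of all genes. Col9a1, a cartilage collagen, was highest in Met-1 at 8.51 ± 0.82 and lowest in HRM-1 at 6.52 ± 0.09 (SD, n = 4). Col2a1, the main cartilage collagen, was likewise highest in Met-1, at 8.30 ± 0.35, and lowest in R3T, at 7.51 ± 0.09. Matn3, a matrilin, was highest in M6 but at 5.93 ± 0.18, below the odorant receptor percentile.

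Sox10, the other SoxE gene, differed from the members above in how much tumors of a model varied. Met-1 tumors read 10.82, 9.43, 10.52 and 10.69, the lowest being host-rich replicate 2. In 6DT1 the host-rich replicates 2 and 3 read 9.56 and 8.53, and the other pair read 6.94 and 6.49. Single tumors also stood above their model in F311, where host-rich replicate 1 read 8.89, in R3T, where host-rich replicate 2 read 7.99, and in E0771, where host-rich replicate 1 read 7.72. The remaining host-rich tumors, EMT-6 replicate 3 at 7.55, F311 replicate 2 at 7.04 and 4T1 replicate 3 at 6.63, included the highest EMT-6 tumor but lay within the range of the others in F311 and 4T1. M6 was spread from 6.90 to 8.26 with no host-rich tumor. Its highest tumor, replicate 2, had the highest adipocyte score of the model, 1.55, but replicate 1 read 7.86 with the lowest, -1.97. The Met-1 median exceeded that of 4T1, the lowest, by 3.97 log2 units or 15.6-fold, yet all 11 neighbouring models in the order overlapped. Without the host-rich tumors, Met-1 stood apart, with its lowest tumor at 10.52 and the highest tumor elsewhere at 8.26, in M6. The pooled within-model SD was 0.62, the largest of the 10 members. Among tumors that were not host-rich, the 6DT1 median was 6.71 in place of 7.74.

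Genes of the Schwann cell and neural crest lineage, where Sox10 is best known, were measured for 5 of 8 listed genes, and 3 passed the F-test. Cdh19, a cadherin of Schwann cell precursors, averaged 7.25 ± 1.42 in Met-1 and 4.42 ± 0.03 in HRM-1 (SD, n = 4). S100b, a calcium-binding protein of glia, was also highest in Met-1, at 6.38 ± 0.52, and lowest in EMT-6, at 5.30 ± 0.06. Ngfr, a neurotrophin receptor found on neural crest and on basal epithelium, was highest in HRM-1 at 10.97 ± 0.17, a model whose Sox10 tumors read 6.68 to 6.88. Of the luminal progenitor genes, all 6 passed the F-test, beside 70.4% of all genes. The 3 with the smallest adjusted p were highest in Met-1, namely Kit, a receptor tyrosine kinase, at 10.76 ± 0.52, Cd14 at 10.02 ± 0.62 and Tspan8 at 7.23 ± 0.93. The luminal progenitor score was 1.28 to 2.20 in the 4 Met-1 tumors, and the highest tumors elsewhere read 1.69 in 6DT1 and 1.29 in M6, so these models overlapped Met-1. The overlap came from 1 Met-1 tumor, the host-rich replicate 2 at 1.28. It lay under the host-rich 6DT1 replicate 2 at 1.69 and under M6 replicate 2 at 1.29, which is not host-rich. The other Met-1 tumors read 2.20, 2.07 and 2.14, above both.

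Sox15, the SoxG gene, was high in HRM-1 and 4T1. The HRM-1 tumors read 9.59, 9.24, 9.03 and 9.60, and the 4T1 tumors read 9.26, 9.25, 9.25 and 9.07. The other 10 models had medians of 6.65 to 7.44, and their highest tumor, in MVT-1, read 7.62. The groups of 2 and 10 models did not overlap, and the step between them was 1.81 log2 units or 3.51-fold. HRM-1 and 4T1, an engineered FVB/N and a spontaneous BALB/c model, overlapped each other. No Sox15 value lay below the odorant receptor percentile in any tumor.

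Of the SoxF genes of endothelium, Sox7 was ordered differently over the models from Sox17 and Sox18. Sox7 was highest in E0771, where the tumors read 9.05, 9.53, 9.20 and 9.23. Every other tumor was lower, the nearest being 6DT1 replicate 3, a host-rich tumor, at 8.87, and the E0771 median was 9.21, against 8.21 in 4T1, the next model. Sox17 and Sox18 instead had their lowest medians in E0771, though for both all 11 steps between neighbouring models overlapped. Sox18 read 9.30, 8.13, 8.27 and 8.49 there, the first of these in the host-rich tumor, and 9.23, 9.33, 9.51 and 9.67 in 4T1, the highest model. Sox17 read 7.15, 6.28, 6.10 and 5.98 in E0771 and 6.20, 7.49, 7.49 and 6.18 in 6DT1, whose middle pair is host-rich. The ranges of the model medians were 1.70 log2 units for Sox7, 1.04 for Sox18 and 0.65 for Sox17, beside pooled within-model SDs of 0.31, 0.39 and 0.32. The model a tumor belonged to accounted for 75.0% of the variance in Sox7, 34.8% in Sox18 and 16.4% in Sox17. These shares were not adjusted for the number of models. Some share arises even where models do not differ, and its size was not estimated. Without the host-rich tumors, the medians of Sox18 and Sox17 in E0771 were 8.27 and 6.10, and E0771 was again lower than any other model. 6DT1, with its host-rich pair left out, went from 6.84 to 6.19 for Sox17 and from 9.41 to 8.69 for Sox18, next above E0771 in both. The range of the Sox17 medians was 1.39 without replicate 1 and 1.21 without replicate 4, and that of Sox18 was 1.72 without either.

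The endothelial score averaged -0.25 ± 0.45 (SD, n = 4) in E0771 and 0.52 ± 0.08 in 4T1, its highest model. MVT-1, M6 and HRM-1 averaged lower than E0771, at -0.37, -0.30 and -0.26. Within E0771, the host-rich replicate 1 scored 0.42 and the other tumors -0.43 to -0.51. Of 12 endothelial genes, 6 passed the F-test, beside 70.4% of all genes, and the count was 12 without the host-rich tumors and 2, 3 and 3 without replicates 2, 3 and 4. Eng, a co-receptor of the TGF-β family, was highest in E0771 at 11.59 ± 0.05 and lowest in HRM-1 at 10.15 ± 0.17, as Sox7 was highest in E0771. Emcn, a sialomucin of veins and capillaries, and Tie1, an endothelial receptor kinase, were lowest in E0771, at 9.61 ± 0.52 and 7.87 ± 0.48, and highest in 4T1, at 10.99 ± 0.15 and 8.92 ± 0.11. Of 5 measured lymphatic genes, 4 passed, and 2 passed without replicate 2, 3 or 4. Flt4, the lymphatic VEGF receptor, was highest in M6 at 7.96 ± 0.33 and lowest in E0771 at 6.53 ± 0.35. Pdpn, a mucin of lymphatic vessels and of fibroblasts, was highest in EMT-6 at 11.80 ± 0.10. Lyve1, a hyaluronan receptor, was highest in 6DT1 at 10.11 ± 1.27, where 2 of 4 tumors were host-rich.

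Whether a member moves with endothelial genes could be tested on variation that had not chosen the members, that among tumors of a model. Each gene's signal was fitted in limma on the endothelial score with the model as a factor, which leaves only differences within models, and adjusted p-values were taken over all 19938 genes. The endothelial genes forming the score include no Sox gene. All SoxF members rose with the score. Sox18 rose by 0.88 ± 0.057 log2 units per log2 unit of the score (SE, adjusted p = 1.03e-14), Sox17 by 0.72 ± 0.055 (adjusted p = 1.09e-12) and Sox7 by 0.57 ± 0.080 (adjusted p = 4.92e-07). Sox10 also rose with it, by 0.90 ± 0.20 (adjusted p = 0.000333). No other member was called, so that 4 of 10 members rose, beside 15% of all genes.

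**Figure D4:**
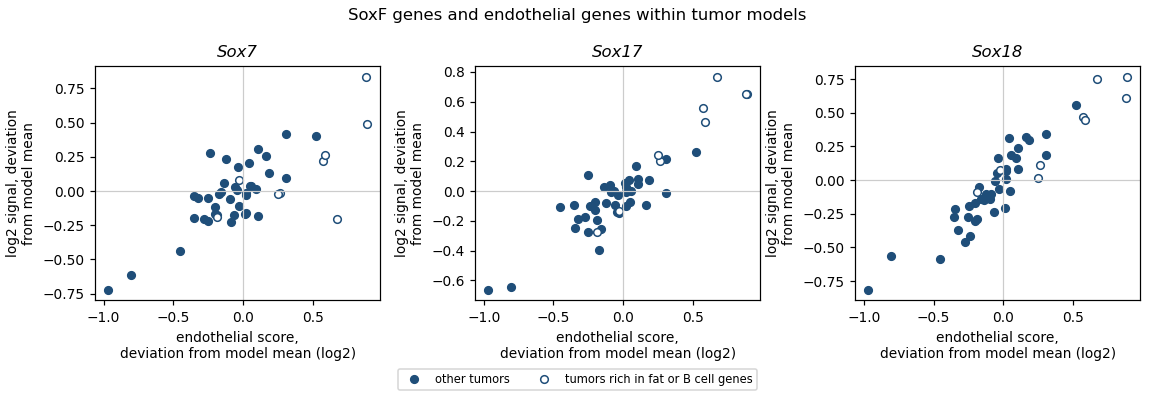
Deviation of Sox7, Sox17 and Sox18 log2 signal from the mean of the tumor's model (y) against the same deviation of the endothelial score (x), with 1 point per tumor for 48 tumors and open circles for the 9 host-rich tumors. The points climb from lower left to upper right for each gene. For Sox17 host-rich tumors hold the upper end, and 6DT1 replicates 1 and 4, which are not host-rich, hold the lower end.

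The host-rich tumors carried part of these slopes. With the 39 remaining tumors, Sox18 rose by 1.17 ± 0.11 (adjusted p = 4.63e-08) and Sox7 by 0.72 ± 0.14 (adjusted p = 0.00491), so 2 of 10 members were called, beside 0.366% of all genes. The slope of Sox17 was then 0.34 ± 0.094 (adjusted p = 0.0968), which did not pass. The slope of Sox10 was -0.16 ± 0.23 (adjusted p = 0.841), of opposite sign to that over all tumors. In a fit holding the endothelial, basal, luminal, adipocyte and B cell scores together over the 48 tumors, which was added after the data had been seen, Sox18 rose by 1.17 ± 0.11 (adjusted p = 4.67e-09), Sox7 by 0.69 ± 0.14 (adjusted p = 0.0102) and Sox17 by 0.45 ± 0.10 (adjusted p = 0.0313), beside 0.426% of all genes. Thus the SoxF genes tracked endothelial genes from tumor to tumor, and for Sox7 and Sox18 this held without the host-rich tumors. The difference between the slopes of the 3 genes was not tested.

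The same fit on the luminal epithelial score, built from keratins, claudins and luminal transcription factors, called Sox10, Sox17 and Sox18. Sox10 rose by 0.96 ± 0.11 log2 units per unit of the score (adjusted p = 1.12e-08), Sox17 by 0.45 ± 0.068 (adjusted p = 3.71e-06) and Sox18 by 0.43 ± 0.096 (adjusted p = 0.000627), beside 12.5% of all genes. Without the host-rich tumors only Sox10 remained among the members, at 0.90 ± 0.15 (adjusted p = 0.00142), beside 1.22% of all genes. The Sox17 and Sox18 slopes were then -0.14 ± 0.11 (adjusted p = 0.699) and -0.21 ± 0.24 (adjusted p = 0.833). With the 5 scores together, Sox10 rose by 0.70 ± 0.20 (adjusted p = 0.0390) and so did Sox4, by 0.70 ± 0.15 (adjusted p = 0.00497), beside 2.06% of all genes. Sox4 had not passed with the luminal score alone, at 0.23 ± 0.12 (adjusted p = 0.135), and without the host-rich tumors its slope on that score was -0.050 ± 0.24 (adjusted p = 0.976). Sox9, found in luminal progenitors as Sox10 is, gave 0.11 ± 0.11 (adjusted p = 0.470) with all tumors.

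**Figure D5:**
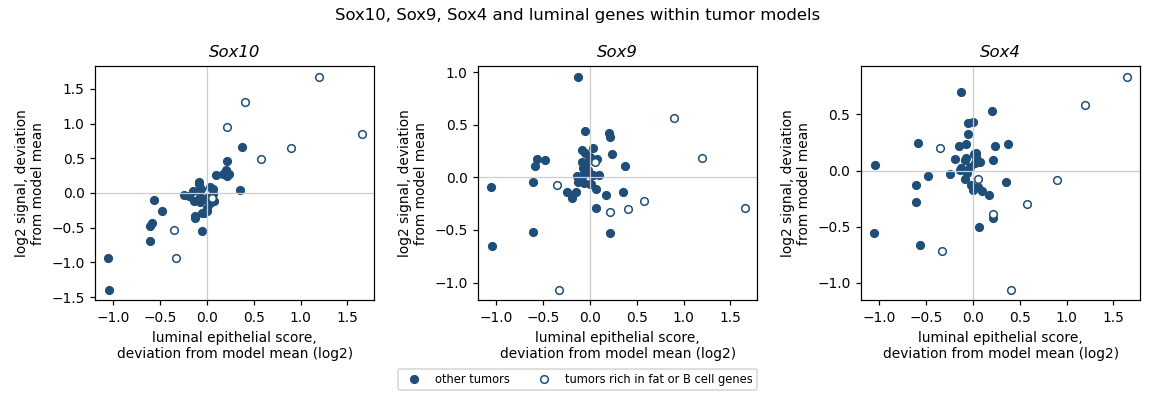
Deviation of Sox10, Sox9 and Sox4 log2 signal from the mean of the tumor's model (y) against the same deviation of the luminal epithelial score (x), with 1 point per tumor for 48 tumors and open circles for the 9 host-rich tumors. Sox10 climbs with the score in filled and open points alike, whereas Sox9 and Sox4, which did not pass with this score alone, scatter about 0.

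Over the models, the luminal score and Sox10 had different orders. The score was highest in M6, at 1.11 ± 0.44 (SD, n = 4), and Met-1 averaged 0.66 ± 0.26, below R3T, 4T1 and M6. Of 13 measured luminal genes, 12 passed the F-test, beside 70.4% of all genes. Claudins led the list, with Cldn4 at 12.28 ± 0.12 in 4T1 against 7.55 ± 0.10 in D2A1, Cldn3 at 11.37 ± 0.16 in HRM-1 against 7.64 ± 0.15 in D2A1, and Cldn7 at 10.60 ± 0.53 in M6 against 6.82 ± 0.07 in D2A1. D2A1, the lowest model for these 3 tight junction genes and for Sox9, was also 1 of the 3 models with Sox2 signal.

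The remaining scores called members only with the host-rich tumors included, although some slopes were similar without them. Sox10, Sox7, Sox17 and Sox18 rose with the basal and myoepithelial score, so that 4 of 10 members were called, beside 16.3% of all genes that rose. Sox10, Sox17 and Sox18 rose with the adipocyte score, beside 14% of all genes. No member was called for either score without the host-rich tumors. The share of all genes called was not taken without these tumors, for these 2 scores or the B cell score, so nothing is read from the lost calls. The Sox10 slope was then 0.50 ± 0.20 against 0.73 ± 0.11 for the basal score and 0.11 ± 0.040 against 0.26 ± 0.042 for the adipocyte score. Sox4 and Sox9 fell with the B cell score, by 0.17 ± 0.045 (adjusted p = 0.00644) and 0.12 ± 0.044 (adjusted p = 0.0416) log2 units per unit, beside 15.1% of all genes falling. Neither passed without the host-rich tumors, at -0.16 ± 0.12 for Sox4 and -0.14 ± 0.12 for Sox9, slopes of similar size with a larger SE. The Sox4 call was also lost without replicate 4 (adjusted p = 0.0769). The Sox9 call was also lost under quantile normalization (adjusted p = 0.0696), without replicate 1, 2 or 4 (adjusted p from 0.140 to 0.643) and with the 5 scores together (adjusted p = 0.270). Of the basal genes 6 of 10 passed the F-test over models, including Krt14 and Krt17, keratins of basal cells, both highest in M6 (12.23 ± 0.22 and 12.06 ± 0.34) and lowest in MVT-1 (6.95 ± 0.40 and 6.48 ± 0.05). None of 7 adipocyte and 5 B cell genes passed it, and 1 of each list did without the host-rich tumors.

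The members had been chosen on levels over the models, and the strains are sets of models, so the next values too are a description. By host strain, BALB/c and FVB/N could be compared over 5 model means each, but the BALB/c lines were all spontaneous and the FVB/N lines all engineered, so strain and origin cannot be told apart. In limma 0 of 10 members were called, and 0 had an unadjusted p under 0.05, beside 0.191% of all genes at the adjusted threshold. The largest difference was for Sox9, at -0.94 ± 0.47 (SE), with means of 10.11 in BALB/c and 11.05 in FVB/N. Those of Sox10 and Sox11 were -0.93 ± 0.62 and -0.92 ± 0.69, and each of these 3 genes was highest in an FVB/N model. Sox4 leaned the other way, by 0.48 ± 0.33.

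Among the 9 other Sox genes, 6 passed the F-test, beside 70.4% of all genes. Sox8, the remaining SoxE gene, was highest in M6 at 8.79 ± 0.11 (SD, n = 4) and in Met-1 at 8.58 ± 0.60. In the other models it lay between 6.83 and 7.13 on average. Its adjusted p in the F-test over the 12 models was 1.5e-15, and M6 and Met-1 against the others was not tested. M6 and Met-1 were thus the highest models for both Sox8 and Sox9. Sox21, a SoxB gene, was highest in R3T at 7.71 ± 0.36 and lowest in E0771 at 6.64 ± 0.09. Sox5, a SoxD gene that acts with Sox9 in cartilage, was highest in E0771 at 7.91 ± 0.26, followed by Met-1 at 7.81 ± 0.51. Of 8 measured genes of β-catenin and TCF signalling, with which several Sox proteins interact, 7 passed. Lef1, a TCF-family factor, was highest in Met-1 at 10.63 ± 0.33 and lowest in D2A1 at 6.25 ± 0.16. Axin2, a feedback target of the pathway, was highest in F311 at 9.65 ± 1.11 and lowest in E0771 at 6.83 ± 0.21. Ctnnb1, which encodes β-catenin, was highest in M6 at 12.22 ± 0.10 and lowest in E0771 at 11.33 ± 0.03.

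The genes whose pattern was most like each member were found by Pearson correlation over the 48 tumors. These share models of 4 tumors each, so the coefficients are descriptive. All coefficients between genes, also those within models, include the host-rich tumors and were not taken without them. Sox10 was nearest to Elf5, a transcription factor of luminal progenitors (r = 0.98), and Slc28a3 and Slc5a8, both solute transporters, followed at 0.97. For Sox10 and Elf5 the coefficient was 0.96 on deviations from the model means, so the likeness was also seen among tumors of a model. Sox11 was nearest to Chad (0.97), Rhcg (0.96) and Trpv6 (0.95), all highest in M6, as at 10.50 on average for Chad against 6.60 in the next model. On deviations within models, Sox11 gave -0.22 with Chad, 0.43 with Rhcg and 0.42 with Trpv6.

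Sox18 was nearest to Erg (0.92), Adgrl4 (0.91) and Tie1 (0.89), all genes of endothelium, and Sox17 to Peli2 (0.87), Sncaip (0.86) and Nos3 (0.86), the last being endothelial nitric oxide synthase. Sox7 was nearest to Hoxd4 (0.89), Hspa12b (0.89) and Tmem204 (0.88), which were highest in E0771 as Sox7 was. Within models, the SoxF genes gave 0.82 for Sox17 with Sox18, 0.73 for Sox7 with Sox18 and 0.60 for Sox7 with Sox17. Host-rich tumors were included in these values. Sox15 was nearest to Fam169a (0.91), Ngfr (0.85) and Csf3 (0.82), each highest in 4T1 and HRM-1 in either order. Sox2 was nearest to Igsf11 (0.88), Rtkn2 (0.79) and Rab3ip (0.79), each highest in D2A1 and R3T in either order. On deviations within models the coefficients were lower, from 0.07 to 0.37 for the genes nearest Sox15 and from 0.09 to 0.33 for those nearest Sox2.

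Sox4 was nearest to Carmil1 (0.89), Tmem132a (0.89) and Stxbp2 (0.88), and Sox9 to Myo5b (0.81), Slc38a3 (0.80) and Map7 (0.78). The last 3 were highest in M6 and next in Met-1, the order of the Sox9 means. Sox12 had the weakest neighbours, Idh2 (0.73), Sycp1 (0.72) and Pcyox1l (0.71). On deviations within models they gave 0.16, 0.18 and 0.09. The Sycp1 model means, 4.35 to 4.74, lay under the odorant receptor median of 4.75, where differences have no reading.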

How the data were processed

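The authors deposited log2 array signals for 35556 transcript clusters of 48 tumors, with software and normalization not given in the sources used here. Values ran from 3.49 to 14.12, array medians from 6.76 to 6.99. The number of arrays limits the precision. A platform annotation gave 1 gene to 21789 clusters, several to 1621 and none to 12146, and the brightest single-gene cluster stood for each of 19938 genes. Groups came from the labels. The labels do not state that tumors of a model came from separate mice, so p-values measure the spread between these tumors. The Sox genes and the marker lists were chosen with earlier results of these data known.

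Linear models were fitted in limma 3.58.1 (R 4.3.3) over all genes with Benjamini-Hochberg adjustment, calling genes at an adjusted p under 0.05. The fits were an F-test over the 12 models, BALB/c against FVB/N on 5 model means each, and each score with the model as a factor. Scripts were tested on simulated data. Figures and descriptions used Python 3.11.15, pandas 2.3.3 and matplotlib 3.10.9. Named genes were the 10 members, the 3 genes of each list with the smallest adjusted p in the F-test, and the 3 genes nearest each member by Pearson r, leaving out predicted symbols. Alternatives were quantile normalization, centring on array medians, dropping the 30% of genes with the lowest mean, averaging all clusters of a gene, an intensity trend, a robust prior, the replicate number as a block, leaving out each replicate, each model or the host-rich tumors, model means in place of medians, a random block for model, and the methods' one-way test. Fitting 5 scores together was added after the data had been seen. RefSeq promoter windows (GRCm38.p6) were used without the 50 bases after the start.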

Additional observations from a re-analysis of the deposited data

Results flagged for a closer look

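In 8 of 120 groups of 4 tumors (10 genes in 12 models), the highest or lowest tumor lay further from its nearest neighbour than Dixon's 95% limit allows, and chance gives about 1 in 20 groups. These 8 cases came from 7 tumors, of which 3 were host-rich. These 3 were F311 replicate 1 for Sox4, at 8.33 with the nearest tumor at 9.60, Met-1 replicate 2 for Sox9, at 10.78 with the nearest at 12.11, and R3T replicate 2 for Sox10, at 7.99 with the nearest at 6.76. M6 replicate 3 was low for Sox9, at 11.74 with the nearest at 12.36, and high for Sox12, at 9.07 with the nearest at 8.67. EMT-6 replicate 2 was low for Sox18, at 8.45 with the nearest at 9.02. Sox15 gave a low tumor in 4T1, replicate 4 at 9.07 with the nearest at 9.25, and in E0771, replicate 3 at 6.67 with the nearest at 6.76.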

How the results depend on the processing

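Without the host-rich tumors, members called fell to 0 from 4 for the basal score, to 0 from 3 for the adipocyte score, to 0 from 2 for the B cell score, to 2 from 4 for the endothelial score and to 1 from 3 for the luminal score. The share of all genes that rose also fell, from 15% to 0.366% for the endothelial score and from 12.5% to 1.22% for the luminal score. That share was not taken for the basal, adipocyte and B cell scores, so nothing is read from their counts of 0. With 5 scores together, 0 members were called for the basal and adipocyte scores and 1 for the B cell score. Of all genes, 4.58%, 3.84% and 11.3% were called in either direction for the basal, adipocyte and B cell scores. Nothing is therefore read from these counts. Centring on array medians gave 5 members for the adipocyte and 4 for the B cell score, and the share of all genes was not taken there. Slopes of members called in the fits of single scores that changed sign were, without the host-rich tumors, Sox10 endothelial (-0.16), Sox17 luminal (-0.14), Sox18 luminal (-0.21), Sox7 basal (-0.080), Sox17 adipocyte (-0.0014) and Sox18 adipocyte (-0.0036), and with 5 scores together, Sox10 endothelial (-0.12), Sox18 basal (-0.27), Sox17 adipocyte (-0.0088) and Sox18 adipocyte (-0.0048). The causes were not tested. Leaving out each replicate number gave ranges of model medians of 3.84 to 4.21 for Sox11, 2.62 to 3.01 for Sox15, 0.56 to 1.39 for Sox17 and 0.84 to 1.72 for Sox18, and 0 members for the B cell score without replicate 4 to 5 without replicate 3. The members past the F-test were 10 without the host-rich tumors and 9 without replicate 1, against 8. Of all 19938 genes, 14317, 13640 and 14031 passed in the same order. Without the 30% dimmest genes, 6 members passed, beside 12327 of all genes kept. In that setting 3 cartilage genes passed against 6, and 4 neuronal and SoxC-associated genes against 7. Genes dropped as dim were not tested there, so nothing is read from the lower counts. With the replicate number as a block, 1 member was called for the B cell score, Sox9 being lost (adjusted p = 0.0664), and 8 still passed the F-test. Residuals of same-numbered tumors of different models had a mean correlation of 0.022 and a lowest of -0.65, beside a mean of -0.00048 for different numbers. The numbers thus did not pair the tumors on average, and a mean does not show whether some models were paired. The number of arrays limits the precision, and the signal of Sox2 and Sox11 in most models lay below the odorant receptor percentile, where small differences have no reading.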
